A study of Mus musculus with 4 samples.

Results

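The collagen chain genes of the mouse were followed in the carotid artery after wire injury. They were taken as every gene whose symbol reads Col, a number, a and a number, which gave 44 of the 31053 genes in the count tables. By the structure of their proteins they were divided into 11 fibrillar chains, 6 basement membrane chains of type IV, 9 FACIT chains (fibril-associated collagens with interrupted triple helices) and 18 other chains. Each of the 44 had at least 1 unique molecular identifier (UMI, a tag that marks 1 captured transcript) in some barcode. Carotid arteries were taken from C57BL/6 mice, 11 weeks old at the start and male per the methods of the study. They were sampled as naive vessels (day 0) or 3, 7 and 14 days after wire injury, and their cells were profiled by droplet RNA-sequencing. The injury was of the deep type, which per the study also disrupts the inner elastic layer and not the endothelium alone. Arteries of several mice were pooled for each time point, thrombosed vessels were left out, and each of the 4 time points was 1 library. Every interval below therefore covers counting error only, at 95%, no test between days was possible, and a difference between days cannot be told apart from a difference between libraries.

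Collagens are proteins of 3 chains wound into a triple helix, and a given type is built from 1, 2 or 3 different genes. Types I, III and V assemble into the fibrils that carry load in the outer layer of an artery, type IV forms the sheet of the basement membrane that surrounds smooth muscle cells and underlies the endothelium, and FACIT collagens sit on the surface of fibrils. Fibroblasts of the adventitia are the main makers of fibrillar collagen in a vessel, and smooth muscle and endothelial cells make basement membranes.

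Cells were assigned to classes by marker genes that included no collagen, and the class names stand for resemblance alone. Of 6161 barcodes with 62964785 UMIs (2672722 to 27973418 per library), 5405 were kept. The fibroblast-like class held 235, 143, 219 and 529 cells on days 0, 3, 7 and 14, with median depths of 8113, 28126, 14650 and 17863 UMIs. The smooth muscle-like class held 11, 104, 51 and 70 cells, and the endothelial-like class only 6, 15, 40 and 8. The immune-like class held 26, 1064, 2009 and 356 cells. All 14 fibroblast markers were detected in the fibroblast-like class on each day, with Dcn the most abundant, and their summed level was 45098, 13333, 20108 and 33169 CPM (UMIs of a gene or list per 1000000 UMIs of the class). In the same cells the immune markers summed to 40.1, 117, 232 and 70.3, the smooth muscle markers to 653, 656, 1063 and 603, and the cell cycle markers to 1.80, 410.3, 126 and 40.5 CPM. The part of these differences in the collagen levels was not tested. At day 3, 69 of the 143 fibroblast-like barcodes held more than 30000 UMIs and gave 88.6% of the UMIs of the class, against none at day 0, 79 barcodes and 76.5% at day 7, and 46 barcodes and 18.0% at day 14. For results that these barcodes moved most, values without them are given too.

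Libraries shared barcodes. Days 0 and 3 had 152 barcodes in common, days 7 and 14 had 64, days 3 and 7 had 1, and the other pairs had none. In 48 barcodes of day 0, 104 of day 3 and 62 of day 14, the copy held under 10% of the UMIs of its partner in the other library, with a median of 0.915%, 4.66% and 1.12%. These 214 shallow copies, of which 140 would have been fibroblast-like, were removed. With them kept, the ratio of all collagen to day 0 in fibroblast-like cells was 2.32, 3.82 and 3.85 on days 3, 7 and 14, against 2.36, 3.84 and 3.88 without them.

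The upstream sequences of 35 of the 44 genes were found in the RefSeq table of build GRCm38.p6. The 250 bases before the start site of Col1a2, Col3a1 and Col8a1 are shown. The first 2 were chosen because they encode chains of the most abundant collagens measured here. Col8a1 was chosen for the largest ratio to day 0, with all barcodes kept, among the chains with UMIs in every fibroblast-like sum. Capitals mark the letters TATAAA (the TATA box), CCAAT (the CCAAT box) and GGGCGG (the GC box) on either strand, and none of the marked motifs overlapped.
Col1a2, chr6:4505368-4505617, plus strand: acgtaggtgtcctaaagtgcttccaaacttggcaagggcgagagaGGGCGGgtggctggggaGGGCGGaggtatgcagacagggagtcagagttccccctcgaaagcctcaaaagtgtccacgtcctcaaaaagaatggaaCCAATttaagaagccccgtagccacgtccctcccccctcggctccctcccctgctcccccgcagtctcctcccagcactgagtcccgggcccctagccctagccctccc
Col3a1, chr1:45311288-45311537, plus strand: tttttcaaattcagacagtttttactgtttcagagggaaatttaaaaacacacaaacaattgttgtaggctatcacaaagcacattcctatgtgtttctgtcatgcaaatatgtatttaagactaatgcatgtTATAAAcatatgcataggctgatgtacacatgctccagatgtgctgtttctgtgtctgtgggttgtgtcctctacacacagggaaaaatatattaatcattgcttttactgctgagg
Col8a1, chr16:57754738-57754987, minus strand: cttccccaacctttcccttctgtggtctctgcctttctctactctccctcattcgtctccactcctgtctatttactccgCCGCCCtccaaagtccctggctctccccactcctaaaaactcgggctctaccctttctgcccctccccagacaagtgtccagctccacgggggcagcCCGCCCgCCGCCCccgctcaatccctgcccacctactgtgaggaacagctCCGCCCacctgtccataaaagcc
The Col1a2 window held 2 GC boxes and 1 CCAAT box, the Col3a1 window 1 TATAAA and no GC box, and the Col8a1 window 4 GC boxes, read as CCGCCC on this strand. GGGCGG was present in 21 of the 35 collagen windows (60%) and in 32.7% of all 32851 windows of that length. CCAAT was present in 12 windows (34.3%) against 33.8%, and TATAAA in 5 (14.3%) against 12.4%. A match is a description of the letters and not of a bound site. In the same table the start sites of Col4a1 and Col4a2 lay on opposite strands of chromosome 8, 21 bases apart, and those of Col4a5 and Col4a6 on opposite strands of the X chromosome, 1343 bases apart.

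Collagen transcripts took a larger part of the RNA of fibroblast-like cells on each day after injury than before it. The summed level of the 44 chains was 19822 CPM (19637–20008) in the naive vessel and 46748 (46565–46931), 76207 (75965–76450) and 76931 (76748–77113) on days 3, 7 and 14. The 3 injured libraries thus stood above the naive one, and those of days 7 and 14 differed by 1.009 times only. In single cells, the median share of UMIs that came from collagen was 1.65%, 4.31%, 6.77% and 6.54%, over 235, 143, 219 and 529 cells. The spread within a day was wide, with lower and upper quartiles of 1.08% and 2.69% at day 0 and 4.19% and 9.42% at day 14, so that the middle ranges of these days did not overlap. The ratio of the day 3 sum to day 0 was 2.36 (2.33–2.38), and it was 2.60 without barcodes above 30000 UMIs.

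**Figure D1:**
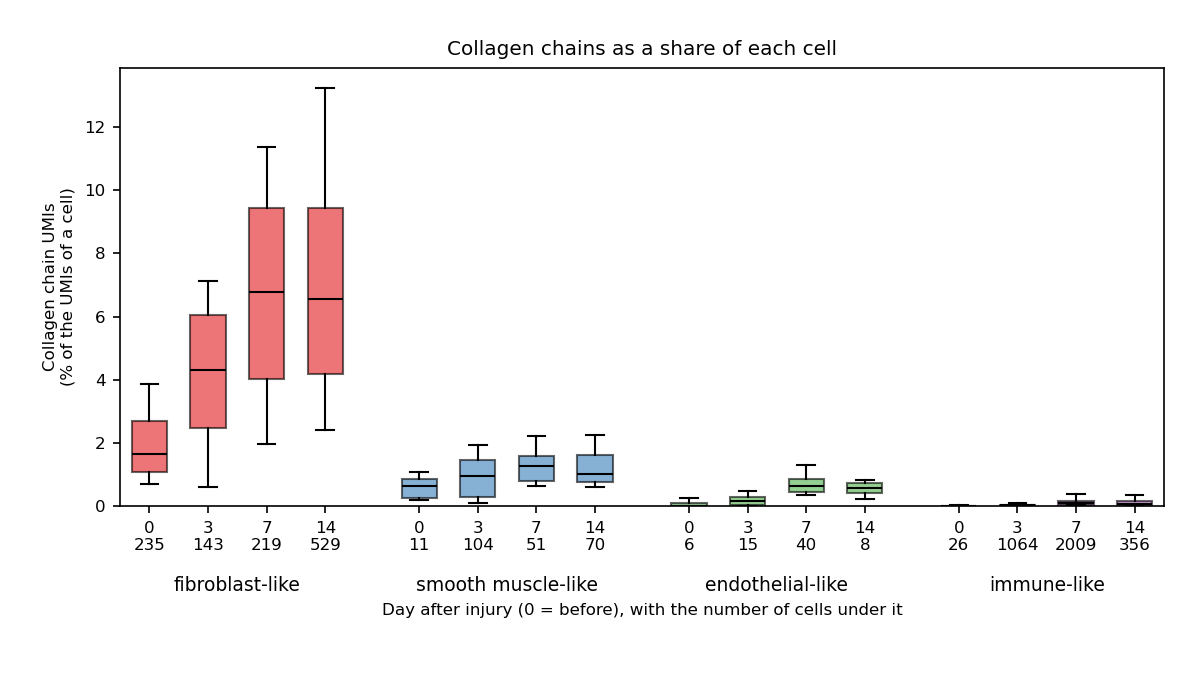
Share of the UMIs of each cell that came from collagen chain genes, in percent, for 4 classes of cells (fibroblast-like, smooth muscle-like, endothelial-like, immune-like) on days 0, 3, 7 and 14; boxes span the quartiles with the median as a line, whiskers reach the 10th and 90th percentile of cells, and the number of cells stands under each box. The fibroblast-like medians stand at 1.65%, 4.31%, 6.77% and 6.54%, and the immune-like medians stay under 0.1%.

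The fibrillar chains made up most of this sum. Together they stood at 16053, 43832, 69961 and 70593 CPM, which was 81.0%, 93.8%, 91.8% and 91.8% of all collagen UMIs of the fibroblast-like class. Col3a1, whose product is the single chain of type III collagen of extensible tissue, stood at 3574, 17312, 27772 and 26692 CPM. It was 4.84 (4.73–4.96), 7.77 (7.60–7.95) and 7.47 (7.30–7.64) times its day 0 level on days 3, 7 and 14. With the shared barcodes kept, these ratios were 4.65, 7.55 and 7.25. Its part of all collagen UMIs went from 18.0% at day 0 to 37.0% at day 3, and it was the most abundant of the 44 chains on the 3 days after injury, as each UMI counts 1 transcript whatever its length.

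The chains of type I collagen, the major fibril of the adventitia, were also higher after injury but by unequal factors. Col1a1, the chain present in 2 copies in the type I molecule, stood at 5003, 12929, 20115 and 20530.5 CPM. Col1a2, its partner, stood at 6853, 11257, 18439 and 20731 CPM. The Col1a1 ratios to day 0 were 2.58 (2.53–2.64), 4.02 (3.94–4.10) and 4.10 (4.03–4.18), whereas those of Col1a2 were 1.64 (1.61–1.67), 2.69 (2.65–2.74) and 3.03 (2.98–3.08). The intervals of the chains did not overlap on any day. The number of Col1a1 UMIs per Col1a2 UMI was accordingly 0.730 (0.712–0.748) in naive cells, 1.15 (1.14–1.16) on day 3, 1.09 on day 7 and 0.990 on day 14.

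The minor fibrillar chains, which join type I fibrils and set their diameter, were higher after injury as well. Col5a2 stood at 298, 1252, 1963 and 1195 CPM, with ratios to day 0 of 4.21 (3.88–4.56), 6.60 (6.10–7.15) and 4.02 (3.71–4.35). Col5a1 stood at 292, 912, 1434 and 903, with ratios of 3.13 (2.88–3.40), 4.91 (4.53–5.33) and 3.10 (2.86–3.36). Both type V chains thus had their highest level at day 7 and stood at 0.609 and 0.630 of it at day 14, while the type I chains did not come down. Col5a3, the remaining type V chain, was scarce in naive cells at 10.8 CPM and stood at 140.4, 116 and 144 afterwards, 12.99 (8.67–20.4), 10.7 (7.15–16.9) and 13.4 (8.93–20.9) times higher. The day 3 ratio was 4.83 without barcodes above 30000 UMIs. Col27a1, a fibrillar chain best known from cartilage, stood at 23.0, 13.4, 41.6 and 25.4 CPM and had the only day 3 ratio under 1 among the fibrillar chains that could be compared, 0.583 (0.402–0.852), which was 1.14 without the deep barcodes.

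Besides the cartilage chain Col2a1, described below, Col11a1 and Col24a1 were the fibrillar chains with no UMI in naive fibroblast-like cells. Col11a1, whose product nucleates fibrils together with type V chains, stood at 0, 5.21, 58.7 and 60.5 CPM on days 0, 3, 7 and 14. Against a floor of 3 UMIs in the day 0 sum, that is at least 3.85, 43.5 and 44.8 times higher. Its UMIs were found in 48 of 219 cells at day 7, with 65 of the 292 in 1 cell. At day 14 they were found in 77 of 529 cells, with 149 of the 538 in 1 cell. In the day 14 cells without a Col2a1 UMI its level was 39.0 CPM. With the deep barcodes left out the levels of days 3 and 7 were 11.4 and 24.8 CPM, on 7 and 29 UMIs. Between days 3 and 7 it was 11.3 times higher (7.64–17.3), or 2.17 times without the deep barcodes. Col24a1, a little-studied fibrillar chain, had 0, 57, 83 and 4 UMIs, or 0, 10.6, 16.7 and 0.450 CPM, and was found in 21 of 143 cells at day 3 and 29 of 219 at day 7. It was at least 7.85 and 12.4 times higher than at day 0 on days 3 and 7, and at day 14 it was 0.0269 (0.00717–0.0716) of its day 7 level. Of Col11a1 and Col24a1, the latter alone was back at day 14 within the range that a count of 0 at day 0 allowed (up to 1.66 CPM by the exact Poisson interval). Its day 3 level rested on the deep barcodes, since 1 UMI was left without them, at 1.63 CPM.

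**Figure D2:**
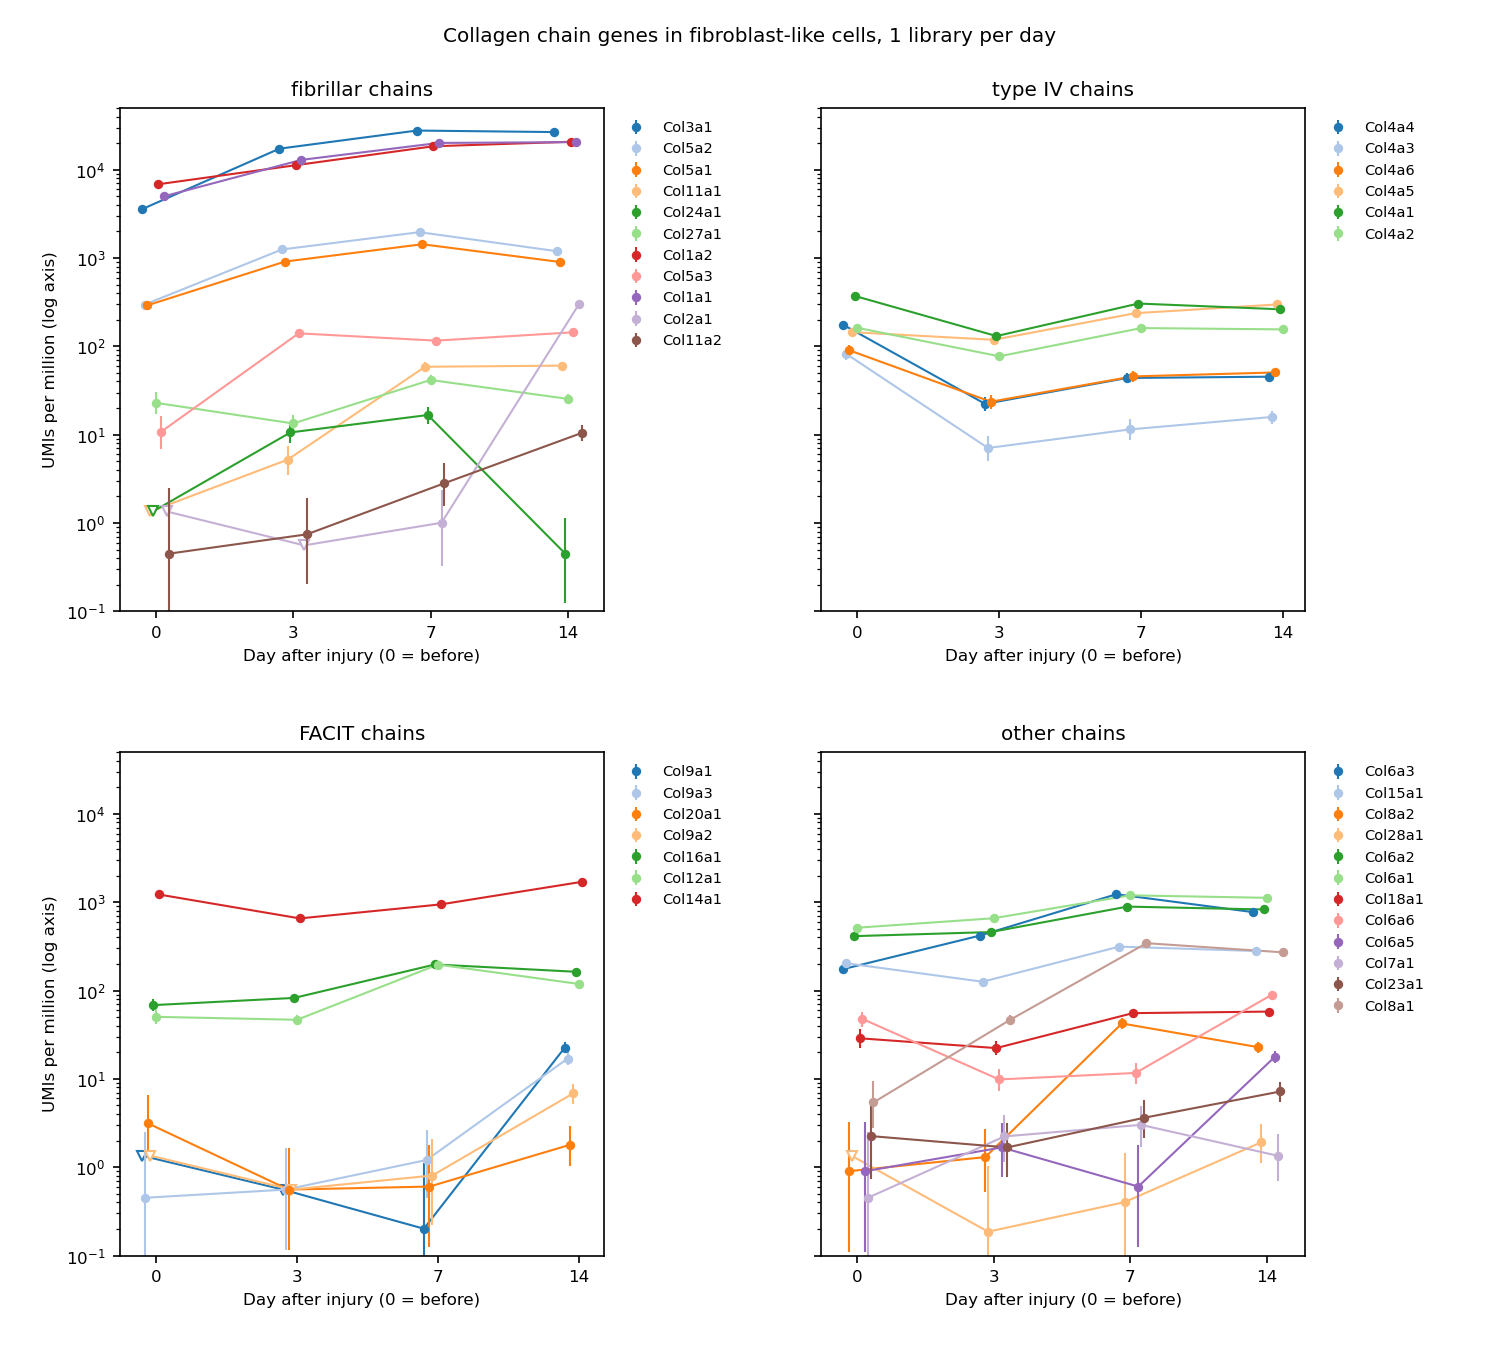
Level of each collagen chain in fibroblast-like cells, in CPM on a log axis, on days 0, 3, 7 and 14 (1 library each, evenly spaced), in 4 panels for fibrillar, type IV, FACIT and other chains; vertical bars are 95% Poisson intervals of the count, and open triangles mark 0 UMIs, drawn at a floor of 3. Col3a1 goes from 3574 at day 0 to 27772 at day 7, whereas Col4a3 goes from 82.4 to 7.07 at day 3.

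The type IV chains took the other direction at day 3. Their sum stood at 1028 CPM (986–1071) in the naive vessel and 379 (363–396), 805 (780–830) and 828 (810–847) on days 3, 7 and 14, so the ratios to day 0 were 0.369 (0.348–0.392), 0.783 (0.744–0.825) and 0.806 (0.769–0.845). Without barcodes above 30000 UMIs the day 3 ratio was 0.989, and as the mean over cells it was 0.582. The 6 chains did not move alike. Col4a1 and Col4a2, the chains of every basement membrane, stood at 373, 131, 305 and 263 and at 162, 77.2, 161 and 156 CPM. Their day 3 ratios were 0.351 (0.317–0.388) and 0.476 (0.412–0.550), but these turned to 1.20 and 1.27 without the deep barcodes.

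Col4a3 and Col4a4, partners in the network known from kidney and lung, were lower on all 3 days after injury. Col4a3 stood at 82.4, 7.07, 11.5 and 15.9 CPM, with ratios of 0.0858 (0.0588–0.122), 0.139 (0.101–0.188) and 0.192 (0.153–0.241). Col4a4 stood at 175, 22.3, 43.8 and 45.3, with ratios of 0.127 (0.103–0.157), 0.250 (0.211–0.296) and 0.259 (0.225–0.298). They were the only type IV chains at most 0.5 times their day 0 level on each day, and without the deep barcodes the ratios were still 0.178 and 0.382 at day 3 and 0.218 and 0.376 at day 7. Col4a5, which completes that network, differed from its partners, at 145, 119, 238 and 298 CPM and 2.06 times its day 0 level at day 14 (1.83–2.32). Its day 3 ratio of 0.818 turned to 1.51 without the deep barcodes. Col4a6, which lies beside Col4a5 and pairs with it in smooth muscle basement membranes, stood at 90.5, 23.6, 45.7 and 50.6, with a day 3 ratio of 0.261 (0.207–0.328) that was 0.685 without the deep barcodes.

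Among the FACIT chains, Col14a1 gave most of the UMIs. The product of this gene binds the surface of fibrils in mature connective tissue, and its level was 1224, 656, 945 and 1702 CPM. It was 0.536 times its day 0 level at day 3 (0.510–0.564), 0.772 at day 7 (0.737–0.810) and 1.39 at day 14 (1.34–1.45), so it was lower while the fibrillar chains were higher and exceeded its naive level only in the last library. The day 3 ratio was 0.925 without the deep barcodes. Col12a1, a FACIT chain of tissue under tension, stood at 50.4, 46.7, 197 and 119 CPM, 3.91 times higher at day 7 (3.21–4.79) and 2.36 times at day 14 (1.94–2.89). Its day 3 ratio was 0.926, or 0.226 without the deep barcodes. The day 0 level rested on 12 of 235 cells, 1 of which held 43 of the 112 UMIs. Col16a1, a minor FACIT chain, stood at 68.4, 82.5, 198 and 163 CPM, with ratios of 1.21 (1.00–1.46), 2.89 (2.43–3.45) and 2.38 (2.02–2.84).

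The other chains were led by type VI collagen, which forms beaded filaments around cells. Col6a1 stood at 515, 659, 1197 and 1123 CPM and Col6a2 at 413, 459.6, 893 and 828. Their ratios to day 0 stayed close to each other, at 1.28, 2.33 and 2.18 for Col6a1 and 1.11, 2.16 and 2.00 for Col6a2. Col6a3, the long chain that sets how much of the molecule is assembled, stood at 175, 419, 1233 and 773, with ratios of 2.39 (2.15–2.67), 7.04 (6.35–7.82) and 4.42 (3.99–4.90), the first of which was 4.03 without the deep barcodes. The number of Col6a3 UMIs per Col6a1 UMI went from 0.340 at day 0 to 0.636, 1.03 and 0.689. Col6a6, an alternative to Col6a3, moved differently, at 47.7, 9.85, 11.7 and 90.1 CPM. It was 0.207 times its day 0 level at day 3 (0.146–0.290), 0.244 at day 7 (0.174–0.340) and 1.89 at day 14 (1.54–2.33), and without the deep barcodes the first 2 ratios were 0.991 and 0.699. Col6a5, the other alternative chain, stood at 0.900, 1.67, 0.603 and 17.8, and 1 of the 32 day 14 cells with a UMI held 53 of its 158 UMIs.

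The type VIII chains form a hexagonal lattice under endothelium and in remodelling vessels. With all barcodes kept, Col8a1 had the largest ratio to day 0 of the chains with a UMI in every fibroblast-like sum. It had 12, 250, 1710 and 2409 UMIs, or 5.40, 46.5, 344 and 271 CPM. It was 8.60 (4.84–16.9), 63.7 (36.4–123) and 50.1 (28.7–97.2) times its day 0 level, and 41.2 times at day 7 without the deep barcodes. Col8a2, its partner, stood at 0.900, 1.30, 42.4 and 22.8 CPM and was 32.6 times higher at day 7 than at day 3, on 7 UMIs at day 3. Without the deep barcodes it had 0 UMIs at day 3 and 55 at day 7, or 47.1 CPM. On 2 UMIs at day 0, its day 7 ratio to day 0 was then above that of Col8a1. In cells thinned to 1000 UMIs, a Col8a1 UMI was found in 0.957%, 4.48%, 18.8% and 13.5% of fibroblast-like cells, over 209, 134, 197 and 498 cells (2.98%, 20.3%, 49.3% and 38.4% of all cells before thinning). In immune-like cells, which should lack the gene and had median depths of 6772, 5461, 7357 and 5742 UMIs, the thinned share was 0%, 0.0962%, 0.576% and 0%. Thinning left out 26, 9, 22 and 31 shallower fibroblast-like cells.

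The multiplexins, which carry sugar chains and link basement membranes to the tissue around them, moved less in this class. Col15a1 stood at 204, 126, 314 and 281 CPM, with ratios of 0.617 (0.547–0.697), 1.54 (1.39–1.71) and 1.38 (1.24–1.52). The day 3 ratio turned to 1.85 without the deep barcodes. Col18a1, the source of the fragment endostatin, stood at 28.8, 22.3, 55.5 and 57.8 CPM, with ratios of 0.774 (0.567–1.07), 1.93 (1.46–2.57) and 2.01 (1.54–2.64).

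Counted over the chains with at least 20 UMIs in both sums together, 9 of 25 were at least 2-fold higher at day 3 than at day 0, against 11.4% of all genes tested in the same way. Another 6 were at most 0.5 times as high, against 11.0% of all genes. The 9 were 7 of 9 fibrillar chains with Col6a3 and Col8a1, and the 6 were 5 of 6 type IV chains with Col6a6. Without the deep barcodes 7 were higher, as Col11a1 and Col24a1, with 7 and 1 UMIs left at day 3, came under the minimum of 20, and 3 were lower, namely Col4a3, Col4a4 and Col12a1, so that 2 of the 6 remained. At day 7, 15 of 27 chains were higher, with 11.2% of all genes, and 3 (Col4a3, Col4a4 and Col6a6) were lower, with 7.96% of all genes. At day 14, 23 of 33 were higher, with 9.31% of all genes, and only Col4a3 and Col4a4 were lower, with 4.68% of all genes. Without barcodes rich in cartilage genes, described below, the day 14 count was 19. The median log2 ratio of the chains compared was 0.15, 1.22 and 1.60 on days 3, 7 and 14, beside -0.06, -0.02 and -0.01 over all genes compared. For the fibrillar chains it was 1.95, 2.72 and 2.47, and for the type IV chains -1.72, -0.64 and -0.67. The day 3 type IV median depends on the deep barcodes. Without them Col4a1, Col4a2 and Col4a5 stood above their day 0 level at day 3, while Col4a3, Col4a4 and Col4a6 stood below it.

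**Figure D3:**
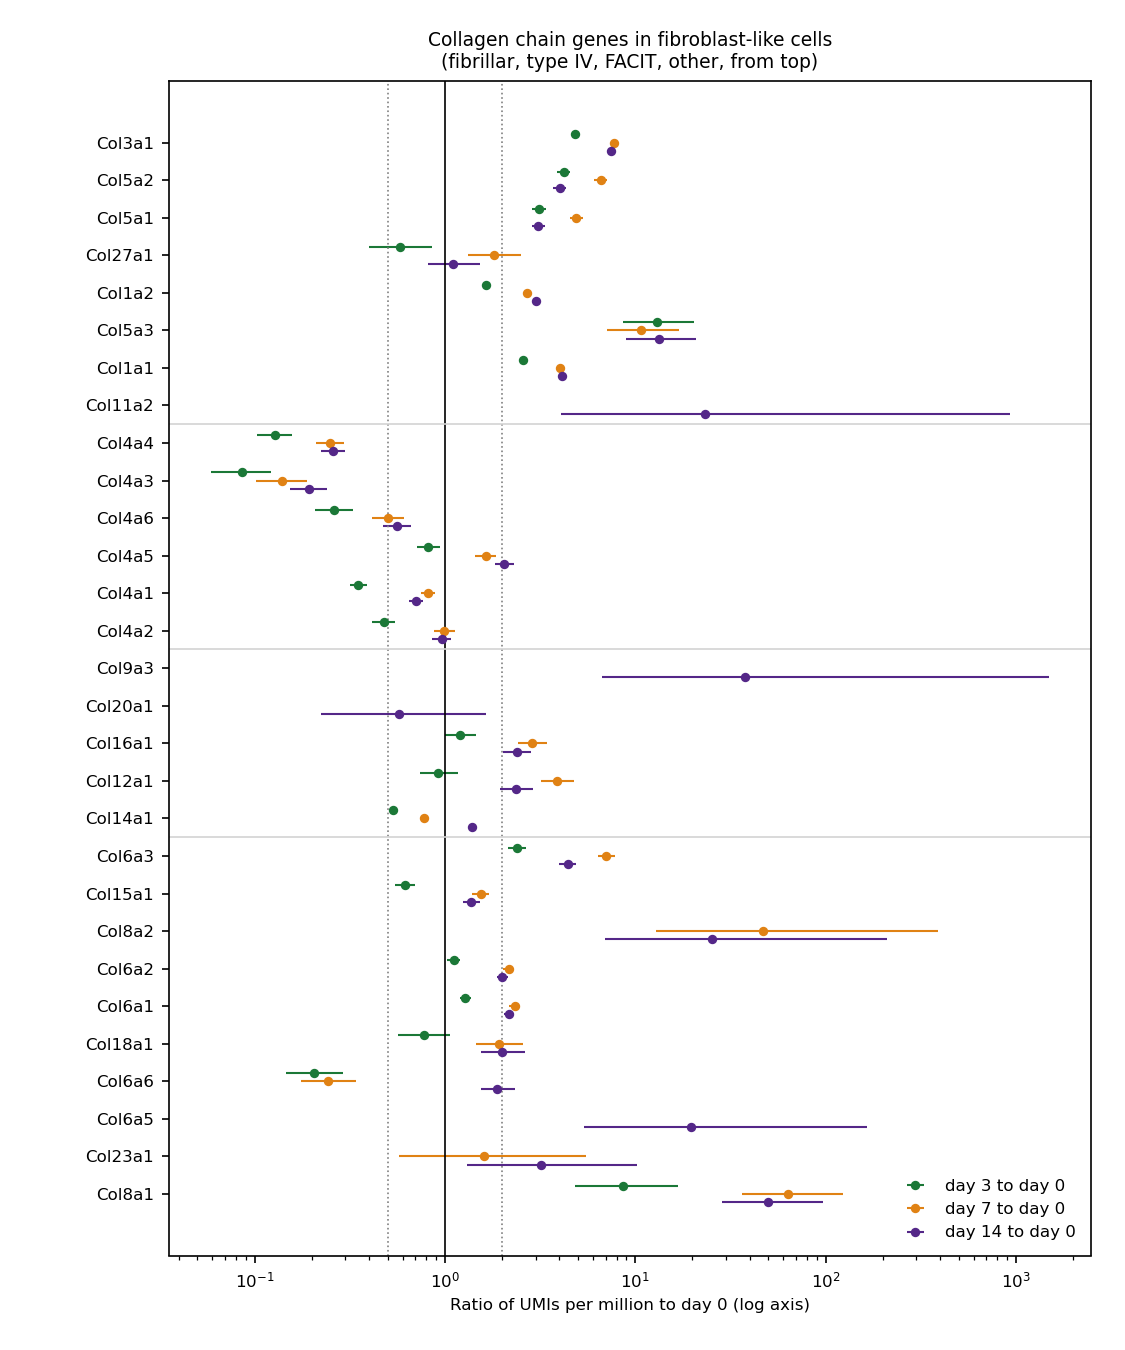
Ratio of the level of each collagen chain in fibroblast-like cells to its day 0 level on days 3, 7 and 14, on a log axis, for chains with at least 20 UMIs over both sums and a UMI in each; bars are exact 95% intervals of the counts and dotted lines mark ratios of 0.5 and 2. The fibrillar chains Col3a1 and Col5a2 lie above 2 on each day, and Col4a3 and Col4a4 lie below 0.5 on each day.

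Between consecutive injured libraries the chains divided further. From day 3 to day 7, 13 of 28 chains were at least 2-fold higher, with 7.30% of all genes, and none was lower, with 4.64% of all genes. Col8a1 was 7.40 times higher (6.48–8.48), Col12a1 4.22 times, Col6a3 2.94 times (2.80–3.09) and the type IV sum 2.12 times (2.01–2.24). Without the deep barcodes 10 chains were higher, 8 of them among the 13, and these ratios were 4.87, 16.8, 2.43 and 0.937. Col4a1, Col4a2 and Col15a1 went from 2.34, 2.09 and 2.50 to 0.790, 0.932 and 0.926 in the same way. From day 7 to day 14, 7 of 34 chains were higher, with 6.25% of all genes, and Col24a1 and the anchoring fibril chain Col7a1 were lower, with 5.69% of all genes. Without the deep barcodes 5 were higher and 4 lower, the latter being Col24a1, Col27a1, Col6a3 and Col8a2. Of the 7 higher ones, 5 were the cartilage chains Col2a1, Col9a1, Col9a2, Col9a3 and Col11a2, and the others were Col6a6, at 7.72 times its day 7 level (5.91–10.3) but 2.80 times without the deep barcodes, and Col6a5, at 29.4 and 7.96 times. Without the cartilage-rich barcodes Col9a2 and Col11a2 stood at 0.843 and 0.401 of their day 7 levels. Col14a1 was 1.80 times higher (1.74–1.86), while Col6a3, Col12a1 and Col8a2 stood at 0.627, 0.603 and 0.538 of their day 7 levels.

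The cartilage chains of day 14 came from few barcodes. Col2a1, the chain of the main cartilage fibril, had 0, 0, 5 and 2666 UMIs in fibroblast-like cells on days 0, 3, 7 and 14. At day 14 a UMI was present in 25 of 529 cells, and 2 barcodes held 1762 and 878 of the 2666. Col9a1, a FACIT chain that coats cartilage fibrils, had 201 UMIs, of which 198 lay in cells with a Col2a1 UMI. Col9a2, Col9a3 and Col11a2 had 61, 151 and 93 UMIs, of which 55, 138 and 84 lay in such cells. The other cartilage genes Acan, Chad and Cnmd had 172, 234 and 121 UMIs at day 14 and none at day 0. The whole list of 9 cartilage and tendon markers summed to 474, 112, 352 and 467 CPM in this class on days 0, 3, 7 and 14, so its sum was not higher at day 14 than at day 0. Comp, which gave most of it, stood at 421 CPM in the naive library and 347 in that of day 14. Without the barcodes holding at least 50 UMIs of Acan, Chad and Cnmd together, the day 14 ratios to day 0 of Col9a3 and Col11a2 went from 37.7 to 3.51 and from 23.2 to 2.51, and they were 14.0 and 11.9 without the deep barcodes. Col10a1, the marker of enlarged cartilage cells, had 539 UMIs over all barcodes, of which 526 lay in 1 day 14 barcode of no class with 24474 UMIs in all. Most UMIs of these chains thus lay in a handful of barcodes in 1 library, and from which tissue these barcodes came was not tested. Other barcodes held scattered UMIs, as of Col11a2 at day 7, with 27 in 27 immune-like and 14 in 13 fibroblast-like barcodes.

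The counts of some partner chains went together from cell to cell and those of others less so. Over the fibroblast-like cells with at least 5000 UMIs (151, 100, 146 and 424 cells), Spearman's rho between Col1a1 and Col1a2 in CPM was 0.92, 0.90, 0.87 and 0.94 on the 4 days. It was 0.81, 0.76, 0.68 and 0.78 between Col1a1 and Col3a1, and 0.47, 0.84, 0.78 and 0.59 between Col4a1 and Col4a2. For Col5a1 and Col5a2 it was 0.42, 0.56, 0.71 and 0.61, and for Col6a1 and Col6a2 0.52, 0.76, 0.58 and 0.65. It was lower for Col6a1 and Col6a3, at 0.23, 0.57, 0.33 and 0.44, and for Col4a3 and Col4a4 it was 0.14 at day 0 and 0.52 at day 14. Between Col4a1 and Col1a1 it was 0.21, -0.20, -0.14 and -0.01. The cells of a day share their library, and shallow cells have coarser values, so these are descriptions.

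The fibroblast-like class was made of different clusters on different days, when all cells were clustered without the collagen genes. A cluster led by Rbp4 and Fmo2 held 206 of the 235 cells of day 0, 49 of day 3, 14 of day 7 and 86 of day 14. A cluster led by Cpxm2 and Eln held 126 and 253 cells of days 7 and 14 but 2 of day 0, and one led by Igfbp5 and Apod held 25 cells of day 0 and 168 of day 14. A cluster led by the inflammatory gene Saa3 and by Prg4 held 41 cells of day 3 and 21 of day 7, with a median of 56504 UMIs. A further cluster, led by Timp1 and the histone gene Hist1h2ap, held 40 cells of day 3, 41 of day 7 and 21 of day 14, with a median of 1417 UMIs, and its summed collagen level was 29733, 46747 and 38571 CPM. Within the Rbp4 cluster the summed collagen level was 22342 CPM at day 0, 51787 at day 3 and 65057 at day 14, and within the Igfbp5 cluster it was 9639 at day 0 and 68757 at day 14. The difference from the naive vessel was therefore also present between cells of 1 cluster.

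Single chains differed between these clusters. Col8a1 stood at 437 CPM in the Cpxm2 cluster at day 7 and at 430.2 in the Igfbp5 cluster at day 14, but at 4.14 in the Rbp4 cluster at day 14. Col12a1 divided naive cells in the same way, with 264 CPM in the 25 cells of the Igfbp5 cluster and 1.69 in the 206 cells of the Rbp4 cluster. Col15a1 went the other way there, at 7.40 in the Igfbp5 cluster and 253 in the Rbp4 cluster at day 0. At day 3, Col4a1 stood at 399.6 CPM in the Rbp4 cluster, beside 429.8 in the same cluster at day 0, and at 32.4 in the Saa3 cluster. Col4a3 was lower also within the Rbp4 cluster, at 87.2 on day 0, 28.9 on day 3 and 56.6 on day 14, and in the Igfbp5 cluster it went from 69.0 on day 0 to 1.39 on day 14. Col4a4 stood at 182, 83.6 and 132.5 CPM in the Rbp4 cluster on these days, and in the Igfbp5 cluster it went from 155 to 7.53. Col4a5, in contrast, stood at 320.3 and 501.7 CPM in the Cpxm2 cluster on days 7 and 14 and at 49.9 in the Igfbp5 cluster on day 14. Col5a3 stood at 9.86 CPM in the Igfbp5 cluster before injury and at 270.3 on day 14, beside 30.4 in the Rbp4 cluster and 61.6 in the Cpxm2 cluster on that day. It was not particular to the Igfbp5 cluster, at 199 (109–334) in the Timp1 cluster on day 14. In the Saa3 cluster it stood at 152.5 on day 3 and 266.5 on day 7. Col24a1 was highest in the Saa3 cluster, at 16.03 CPM on day 3 and 46.4 (33.7–62.2) on day 7, against 26.6 (12.8–48.9) in the Timp1 cluster and 9.10 in the Cpxm2 cluster on day 7 and 0 in the Rbp4 cluster on days 0 and 14. Col11a1 had 0 UMIs in the naive cells of the Rbp4 and Igfbp5 clusters and stood at 70.0 and 89.3 CPM in the Cpxm2 cluster on days 7 and 14. Over the whole class at day 14, 211 of the 538 Col11a1 UMIs lay in the 25 cells with a Col2a1 UMI. The high levels of day 7 and day 14 thus belonged to different clusters for different chains. Col14a1 differed little between clusters at day 14, at 1635, 1650 and 1758 CPM in the Rbp4, Igfbp5 and Cpxm2 clusters.

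Smooth muscle-like cells made less collagen RNA than fibroblast-like cells, in other proportions. All chains together stood at 7931, 13311, 16443 and 12207 CPM on days 0, 3, 7 and 14, which was 0.4001, 0.285, 0.216 and 0.159 of the fibroblast-like level of the same day. The day 0 value rests on 11 cells and 779 collagen UMIs, and 3 of these cells gave most of the UMIs of the class. The 14 smooth muscle markers were all detected on each day, and fibroblast markers summed to 2179, 1563, 2757 and 2828 CPM. Col18a1 stood out, at 1537, 748, 1313 and 1543 CPM, 53.4 (39.6–72.6), 33.5 (27.9–40.6), 23.7 (20.7–27.1) and 26.7 (24.2–29.5) times the fibroblast-like level of the same day. It was 0.486 of its day 0 level at day 3 (0.412–0.578), and without the deep barcodes its day 3 level was 1024 CPM. The type IV sum stood at 1609, 1308, 1965 and 1890.4, which was 1.57 (1.32–1.84), 3.45 (3.26–3.64), 2.44 (2.30–2.59) and 2.28 (2.18–2.39) times the fibroblast-like level. The day 3 value was 1.34 without the deep barcodes.

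Within the type IV sum of smooth muscle-like cells, Col4a1 stood at 804, 638, 891 and 806 CPM on days 0, 3, 7 and 14, and Col4a2 at 366.5, 402.5, 490.3 and 597. On day 3 they were 4.88 (4.47–5.34) and 5.22 (4.65–5.85) times the fibroblast-like level, or 1.20 and 1.80 times without the deep barcodes. Col4a5 stood at 336, 198, 392 and 311 CPM and Col4a6, its neighbour and partner in the membrane around smooth muscle, at 102, 55.9, 160.5 and 129. Without the deep barcodes the day 3 levels were 324 and 117 CPM, so that Col4a6 then stood above its naive level. Col15a1 stood at 316, 520.1, 548 and 418 CPM, 1.55, 4.13, 1.74 and 1.49 times the fibroblast-like level, and the day 3 value was 1.38 without the deep barcodes. The multiplexins thus divided between classes, with 7.08, 5.64, 5.66 and 4.85 Col15a1 UMIs per Col18a1 UMI in fibroblast-like cells (231 and 18 UMIs at day 3 without the deep barcodes) and 0.205, 0.696, 0.418 and 0.271 in smooth muscle-like cells. In cells thinned to 1000 UMIs, a Col18a1 UMI was present in 62.5%, 39.6%, 61.2% and 76.1% of 8, 91, 49 and 67 smooth muscle-like cells (72.7%, 63.5%, 86.3% and 94.3% before thinning, at median depths of 8000, 17158, 12470 and 14880 UMIs). In thinned immune-like cells the share was at most 0.629%.

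The type I and III chains of smooth muscle-like cells stood higher in each injured library than in the naive one, whose class held 11 cells. Col1a1 stood at 407, 2763, 3275 and 1734 CPM, 6.79 times its day 0 level at day 3 (4.98–9.51) on 40 UMIs at day 0. With the deep barcodes left out it stood at 1595, 2075 and 2032 CPM on days 3, 7 and 14. Col3a1 stood at 1374, 2600, 3298 and 2536 and Col1a2 at 1242, 2739, 3273 and 2248. The number of Col1a1 UMIs per Col1a2 UMI was 0.328 at day 0 and 1.009, 1.001 and 0.771 afterwards. Without the deep barcodes the Col1a1 and Col1a2 UMIs numbered 818 and 1077 at day 3 and 1010.0 and 1311 at day 7, so Col1a1 was then the lower of the pair. Fibrillar chains gave 44.4%, 70.4%, 66.5% and 59.3% of the collagen UMIs, less than in fibroblast-like cells on each day.

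From day 3 to day 14, the summed collagen of smooth muscle-like cells was 0.917 times as high (0.899–0.935). That direction turned to 1.33 as the mean over cells and to 1.19 without barcodes above 30000 UMIs, of which 38 at day 3 gave 81.1% of the UMIs of the class. Of 21 chains compared, 5 were at least 2-fold higher, with 6.23% of all genes, and 3 were lower, with 10.2% of all genes. The higher ones were Col4a3, Col4a4, Col4a6, Col14a1 and Col18a1, and the lower ones Col5a2, Col8a1 and Col12a1. Col14a1 was 5.63 times higher (4.32–7.40) and 2.53 times without the deep barcodes. Col18a1 was 2.06 times higher (1.94–2.20) and 1.58 times without them, and Col4a6 2.31 times (1.83–2.91) and 1.19 times without them. Col5a2 stood at 0.472 of its day 3 level (0.426–0.521), or 0.841 without the deep barcodes. Col8a1 stood at 0.330 (0.231–0.461), which turned to 3.74 without them, and Col12a1 at 0.495 (0.212–1.03), which turned to 1.05. A cluster led by Myh11 held 68 cells of day 3 and 71 of day 14, beside 104 and 70 in the class. Over all days, 54 cells of the class lay in the Timp1 cluster. From day 3 to day 14, smooth muscle markers went from 26546 to 51655.5 CPM and cell cycle markers from 272 to 1.70. The part of these differences in the collagen levels was not tested.

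Endothelial-like cells were few, and 2 of the 15 at day 3 held 81.5% of the UMIs of the class. Collagen stood at 1203 CPM (713–1901) in the naive vessel and 2948 (2697–3217), 5589.8 (5392–5793) and 3507 (2739–4424) on days 3, 7 and 14, on 18, 507, 3014 and 71 UMIs. The day 3 level was 1039 CPM without its 2 deep barcodes, which left 13 cells with 31775 UMIs of all genes. The ratios to day 3 without the deep barcodes therefore rest on few collagen UMIs, and they are given without intervals. The type IV sum was 1.75 times higher at day 7 than at day 3 (1.43–2.15), from 657 to 1148 CPM, and 17.1 times higher without the deep barcodes. Of 10 chains compared between these days, 5 (Col1a1, Col3a1, Col4a2, Col8a1 and Col18a1) were at least 2-fold higher, with 15.4% of all genes, and Col5a1 and Col6a3 were lower, with 8.74% of all genes. At day 7, Col3a1 and Col1a1 stood at 191 and 143 CPM in this class, under the 273 and 197 CPM of immune-like cells of that day, and are not read as its own expression. Col5a2 was the most abundant chain of the class at day 7, at 1461 CPM in 28 of 40 cells beside 28.6 CPM in immune-like cells. It stood at 872 CPM at day 3, a ratio of 1.68 (1.41–2.01) that was 17.9 without the deep barcodes. Col8a1 went from 319.8 to 1141 CPM, 3.57 times (2.70–4.79), and was found in 18 of 40 cells at day 7. Of its 615 UMIs on that day, 167 lay in 1 cell and 3 cells held at least 50% of them, and 5 deep barcodes gave 63.1% of the UMIs of the class. Its ratio was 30.0 without the deep barcodes of both days. It stood there 3.32 times above fibroblast-like cells (3.02–3.64) and 16.4 times above smooth muscle-like cells (12.4–22.04) of the same day. Col18a1 went from 326 to 1128, 3.46 times (2.63–4.64), and Col4a1 from 454 to 697, 1.54 times (1.20–1.99), which were 10.2 and 15.6 times without those barcodes.

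A single cell of day 3 held 63 of the 78 Col4a1 UMIs of the 15 cells, 41 of the 55 of Col8a1, 27 of the 36 of Col6a3 and 86 of the 150 of Col5a2. The lower Col6a3 level at day 7, 18.5 against 209 CPM, turned to a ratio of 2.39 as the mean over cells, in place of 0.0886. Col5a1, at 94.6 against 203.5, turned from 0.465 to 2.67 in the same way. The fibroblast markers summed to 869, 622, 1493 and 988 CPM in this class on days 0, 3, 7 and 14, and the endothelial markers to 25199, 5059, 7864 and 12151. Cell cycle markers summed to 0, 2088, 731 and 49.4, and smooth muscle markers to 334, 1291, 410 and 741. The part of these differences in its collagen levels, fibrillar chains included, was not tested.

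**Figure D4:**
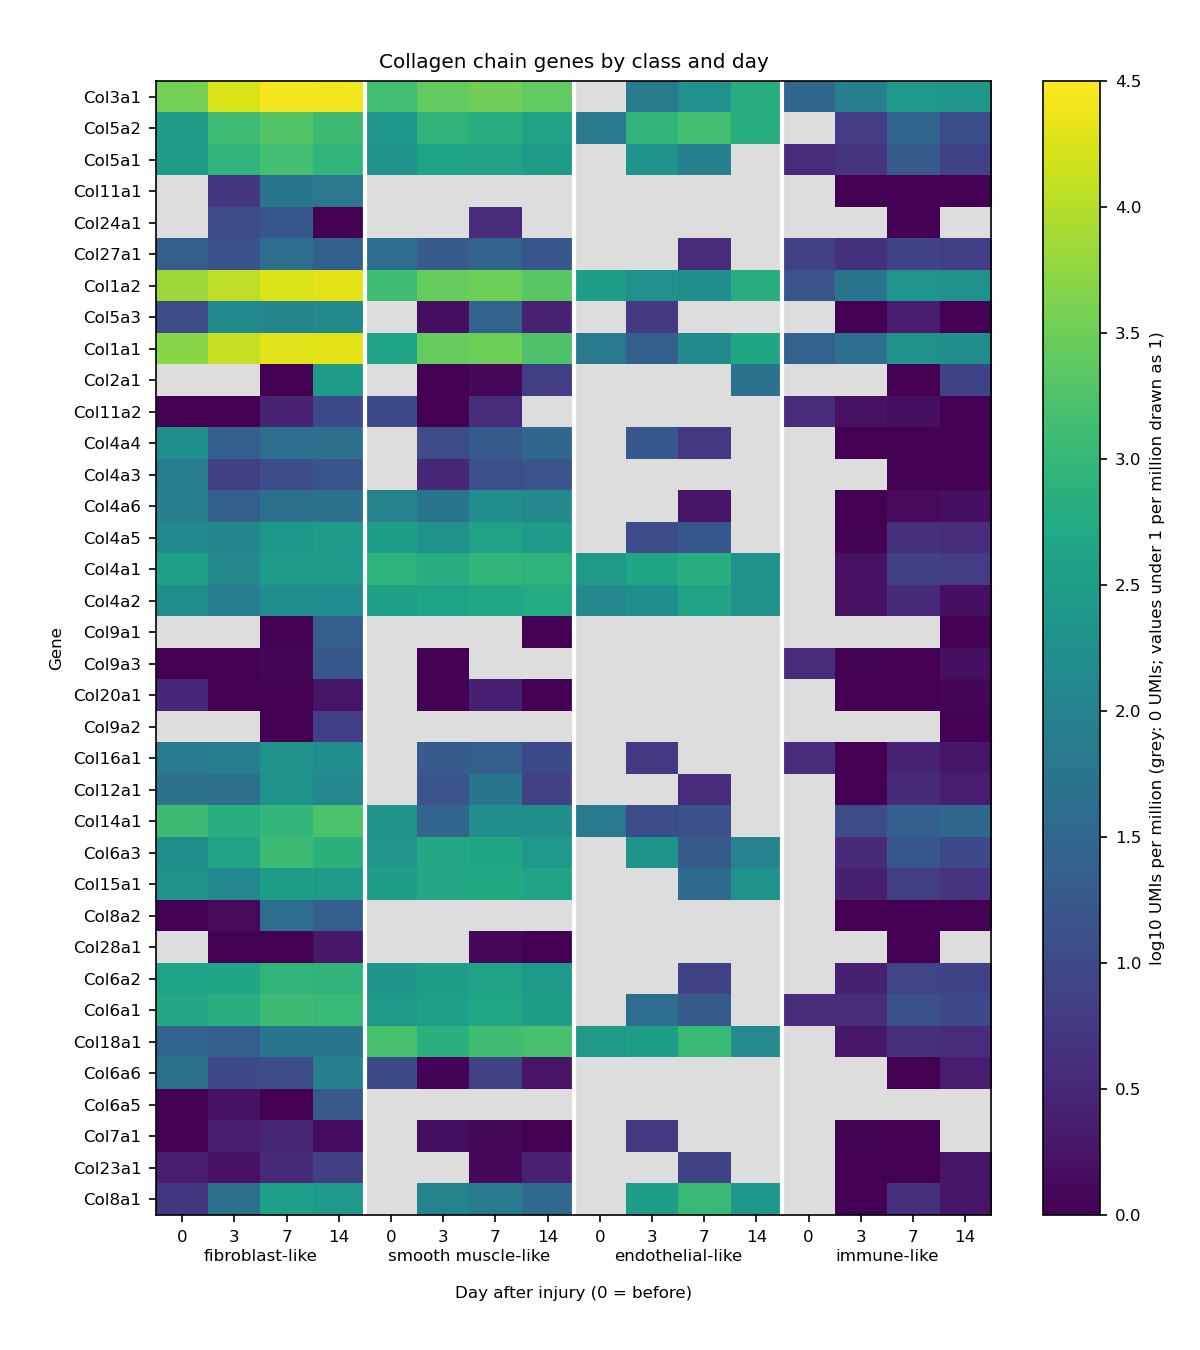
Level of each collagen chain in the 4 classes of cells on days 0, 3, 7 and 14, as the log10 of CPM, with genes in rows by group; grey marks 0 UMIs, and levels under 1 are drawn as 1. Lighter colours mark higher levels. Col18a1 is lighter in smooth muscle-like cells at day 0 (1537 CPM) and in endothelial-like cells at day 7 (1128) than in fibroblast-like cells of the same day.

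Immune-like cells served as the level that free RNA can give. All chains together stood there at 98.0, 236, 858 and 742 CPM, or 0.00494, 0.00505, 0.0113 and 0.00965 of the fibroblast-like level. Col3a1, Col1a2 and Col1a1 led this background at day 7, at 273, 226 and 197 CPM. Some chains were less evenly spread over these cells. At day 7, 147 Col27a1 UMIs lay in 61 of 2009 cells, with 15 in 1 cell. On that day 397 Col14a1 UMIs lay in 239 cells, with 16 in 1 cell. Whether free RNA gave the levels of these chains was not tested. After thinning, 24.2% of immune-like cells of day 7 held a Col1a1 UMI, beside 98.0% of fibroblast-like cells (99.1% before thinning). For Col5a2 the shares were 4.35% and 71.1%, so a single UMI of an abundant fibrillar chain did not mark a cell as a maker of it.

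Genes that act on collagen were compared in fibroblast-like cells with all barcodes kept. Their values without the deep barcodes are not given, so how far the day 3 levels rest on those barcodes is not shown. Of 18 genes for folding, hydroxylation and export, 6 of 16, 5 of 16 and 3 of 17 compared were at least 2-fold higher than at day 0 on days 3, 7 and 14, and none was lower. Over all genes 11.4%, 11.2% and 9.31% were higher and 11.0%, 7.96% and 4.68% lower on these days, which is the background of each count in this paragraph. Plod2, which hydroxylates lysines for stable crosslinks, stood at 89.1, 496, 588 and 185 CPM. P4ha3, a prolyl hydroxylase subunit, had 0 UMIs at day 0 and stood at 15.99, 77.8 and 27.9 afterwards, and the collagen chaperone Serpinh1 stood at 1786, 2388, 2594 and 2254 without passing 2-fold. Of the genes for cleavage and crosslinking, with the gate marker Pcolce left out, 6 of 10, 5 of 9 and 3 of 10 were higher and Pcolce2, an enhancer of propeptide cleavage, was lower each time, at 1184, 141, 118 and 298 CPM. Lox, the main crosslinking oxidase, stood at 182, 673, 1307 and 757, and was thus highest at day 7 like Col5a1 and Col5a2, whereas Loxl2, a relative of it, stood at 41.9, 379.7, 199 and 106 and was highest at day 3. Of the collagen receptors, 2 of 6, 3 of 7 and 3 of 7 were higher, and 2 were lower at day 3. Itga11, the integrin subunit for fibrillar collagen on fibroblasts, stood at 4.502, 2.05, 17.3 and 28.8 CPM.

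Of the 44 chains, 36 had at least 20 UMIs in the fibroblast-like class, 22 in the smooth muscle-like, 11 in the endothelial-like and 25 in the immune-like class. Under 20 UMIs in the fibroblast-like class were the FACIT chains Col19a1 and Col22a1, the transmembrane chains Col13a1, Col17a1 and Col25a1, and Col6a4, Col10a1 and Col26a1, which had 1 to 6 UMIs each. Col19a1 had 14 of its 20 UMIs in the smooth muscle-like class. Another 3 chains stayed scarce in fibroblast-like cells at every time point, Col20a1 at 0.558 to 3.15, Col28a1 at 0 to 1.91 and Col7a1 at 0.450 to 3.02 CPM. Col23a1, a transmembrane chain, stood at 2.25, 1.67, 3.62 and 7.20 CPM and was 3.20 times higher at day 14 than at day 0 (1.30–10.2).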

How the data were processed

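Droplet single-cell RNA-sequencing of carotid arteries, 1 library per time point, was analysed from the deposited matrices, which hold raw UMI counts per gene and barcode. The authors made these counts with Cell Ranger (the matrix headers name version 3.0.2, the methods an older one) and kept the barcodes it called as cells. The processing notes name a human build for the mouse reads, so no coordinates were taken from the files. The reads were not realigned, and counts of chains that overlap another gene could not be checked.

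The members and lists were chosen with earlier results of these data known. Python 3.11.15 with scanpy 1.11.5, scipy 1.17.1, numpy 2.4.6 and pandas 2.3.3 was used. Barcodes with under 200 genes or over 20% mitochondrial UMIs were removed (453), as were shallow copies of shared barcodes (214). Scrublet's own threshold called 11 of 6161 barcodes as doublets, too few to rely on, so the highest scores were removed at 0.8% per 1000 barcodes (106). A cell joined a class when its mean log level of the class markers, scaled to 10000 UMIs, was at least 0.4, the next class reached at most 0.5 of it, and at least 3 markers were present. In 238 cells the score of the next class lay between 0.4 and 0.6 of the highest score, and 519 cells had no class. Clusters came from 2000 variable genes without collagens, 30 principal components, 15 neighbours and Leiden resolution 1. The authors' own annotation was not used, so classes may differ from theirs.

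UMIs were summed per class and library and scaled to UMIs per 1000000 (CPM). Intervals are exact Poisson for levels, exact binomial for shares of cells and conditional binomial for ratios. A sum of 0 was replaced by 3 UMIs for a bound. Chains with at least 20 UMIs in a class were described, and in depth the 6 most abundant and the 6 with the largest ratios. The counting was tested on simulated data. Alternatives were a stricter gate, a stricter barcode filter, classes from clusters, no doublet removal, the mean over cells, another denominator, a minimum of 50 UMIs, no thinning, and leaving out barcodes above 30000 UMIs. Keeping shared barcodes and leaving out cartilage-rich barcodes were chosen after seeing the data.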

Additional observations from a re-analysis of the deposited data

Results flagged for a closer look

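In 3 chains the level was at least 2-fold higher on the later day in fibroblast-like cells and at least 2-fold lower in another class. Other chains went opposite ways by less and are not listed, such as Col1a1 in smooth muscle-like cells from day 3 to day 14. None of these differences was tested. From day 3 to day 14, Col12a1 had a ratio of 2.54 in fibroblast-like and 0.495 in smooth muscle-like cells. Over the same days, Col8a1 had a ratio of 5.83 in fibroblast-like and 0.33 in smooth muscle-like cells. From day 3 to day 7, Col6a3 had a ratio of 2.94 in fibroblast-like and 0.0886 in endothelial-like cells. The direction of the smooth muscle-like ratios turned without barcodes above 30000 UMIs, and that of the endothelial-like ratio turned as the mean over cells.

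Cells that joined no class also held collagen above the level of immune-like cells. Their summed collagen stood at 14750, 20011 and 29753 CPM on days 3, 7 and 14, in 79, 370 and 67 cells with median depths of 1124, 856 and 1043 UMIs, against 236, 858 and 742 in immune-like cells. At day 0 it stood at 1569 CPM in 3 cells.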

How the results depend on the processing

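No paired analysis was possible because each time point was 1 library. For all chains in fibroblast-like cells, the ratio to day 0 went from 2.36 at day 3 to 2.66 with classes taken from clusters, 2.10 as the mean over cells, 2.62 with another denominator, 2.60 without barcodes above 30000 UMIs and 2.32 with shared barcodes kept. The day 7 ratio of 3.84 went to 3.94, 3.36, 4.15 and 4.15 under the first 4 of these, 3.99 with the stricter gate and 3.74 with the stricter barcode filter. The day 14 ratio of 3.88 went to 3.58 as the mean over cells and 4.11 with another denominator. The number of chains at most 0.5 times their day 0 level at day 3 went from 6 to 3 without the deep barcodes, and the other counts against day 0 stayed within 1.5 times. In smooth muscle-like cells the day 14 to day 3 ratio of 0.917 went to 1.02 with classes from clusters, 0.878 with the stricter gate, 1.33 as the mean over cells, 0.888 with another denominator and 1.19 without the deep barcodes. The endothelial-like type IV ratio of 1.75 went to 5.14 with the stricter gate, 9.95 as the mean, 1.36 with the stricter barcode filter and 17.1 without the deep barcodes.

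Of the called values for single chains, leaving out the deep barcodes reversed the day 3 ratios of Col4a1 and Col4a2 in fibroblast-like cells (1.20 and 1.27), their day 7 to day 3 ratios there (0.790 and 0.932) with those of Col15a1 (0.926) and the type IV sum (0.937), the day 14 to day 3 ratios of Col12a1 and Col8a1 in smooth muscle-like cells (1.05 and 3.74) and that of Col5a1 between days 7 and 3 in endothelial-like cells (2.79). Leaving out the cartilage-rich barcodes reversed the day 14 to day 7 ratios of Col9a2 (0.843) and Col11a2 (0.401) in fibroblast-like cells. The mean over cells reversed the day 7 to day 3 ratios of Col6a3 (2.39) and Col5a1 (2.67) in endothelial-like cells. The cause was not tested. Some ratios of scarce chains could not be computed with the stricter gate, with classes from clusters or without the deep barcodes. Depth limits the smooth muscle-like day 0 values (11 cells) and the endothelial-like values of days 0 and 14 (6 and 8 cells) most.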
